A study of Mus musculus with 2 samples.

Results

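Cxcl9 and Cxcl10, which encode a pair of interferon-induced chemokines, and Cxcr3, which encodes their shared receptor, were followed cell by cell in CD45+ cells of the colonic lamina propria (LP) of mice with dextran sulfate sodium (DSS) colitis. These 3 genes were taken from 32228 genes counted in 2 single-cell RNA libraries, 1 from cells labelled WT and 1 from cells labelled Ring1aKO. Each library pooled cells of 5 C57BL/6 mice, stated to be 8 to 10 weeks old, that had received 2.5% DSS for 7 to 8 days. The Ring1aKO mice lacked Ring1a, a ring-finger subunit of the Polycomb repressive complex encoded by Ring1, and the WT mice were the controls with the gene intact. Ring1a was knocked out in the whole body, so a difference in a class need not have arisen in that class. Live CD45+ cells were sorted from the digested LP and captured with a droplet-based 3′ kit, which counts unique molecular identifiers (UMIs) for each gene in each cell barcode. The question put to these genes was which LP cells carried the ligands and the receptor, and how their levels compared between the 2 genotypes. With 1 library per genotype no test between WT and Ring1aKO was possible, the genotype and the library cannot be told apart, and all intervals given cover counting error only.

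Barcodes were kept with at least 1000 UMIs, at least 500 genes and less than 5% mitochondrial UMIs. This left 6005 cells with 61864835 UMIs in the WT library and 7918 cells with 69029466 UMIs in the Ring1aKO library, with median totals of 6354 and 5035 UMIs per cell. Each cell was placed in a class by the share of a fixed list of markers it held, and 4.66% and 4.74% of cells stayed unassigned. T-like cells were then split into gates by whether they held a UMI of single genes. Classes are called "-like" because they rest on transcripts alone. Barcodes carrying markers of 2 incompatible lineages numbered 603 and 716 and were kept in the main counts, and 11 barcode sequences occurred in both libraries. Ring1 itself was still counted in the library labelled Ring1aKO, with 828 UMIs in WT and 816 in Ring1aKO, or 13.4 and 11.8 CPM (UMIs of the gene per 1000000 UMIs), a log2 ratio of Ring1aKO over WT of −0.18 (95% interval −0.32 to −0.04). A 3′ count need not show a deletion elsewhere in the gene, so the libraries are named by their labels throughout.

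CXCL9 and CXCL10 are secreted after cells sense interferon-gamma, and CXCL10 is also induced by type I interferon and by NF-kB signalling. Both bind CXCR3 on T helper 1 cells, effector CD8 T cells and natural killer (NK) cells and draw them into inflamed tissue. In the colon, monocytes, macrophages and dendritic cells (DCs) are known sources of these chemokines.

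The ligand genes lie side by side on mouse chromosome 5. In GRCm38 with GENCODE vM21, Cxcl9 (ENSMUSG00000029417) spans chr5:92321347-92328079 on the minus strand with 4 exons, and Cxcl10 (ENSMUSG00000034855) spans chr5:92346638-92348889 on the same strand with 3 exons. Only 18558 bases separate them. Cxcr3 (ENSMUSG00000050232) lies at chrX:101731535-101734269 on the minus strand with 2 exons. The 250 bases before the start of each ligand gene are shown for description, and no link between them and the levels was tested. They are RefSeq sequence (GRCm38.p6), read 5′ to 3′ on the gene's strand, and capitals mark every match to the motifs searched.
Cxcl9: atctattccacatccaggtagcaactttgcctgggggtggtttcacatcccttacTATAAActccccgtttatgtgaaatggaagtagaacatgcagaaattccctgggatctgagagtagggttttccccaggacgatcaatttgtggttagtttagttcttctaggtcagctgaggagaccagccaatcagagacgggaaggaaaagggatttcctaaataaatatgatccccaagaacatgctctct
Cxcl10: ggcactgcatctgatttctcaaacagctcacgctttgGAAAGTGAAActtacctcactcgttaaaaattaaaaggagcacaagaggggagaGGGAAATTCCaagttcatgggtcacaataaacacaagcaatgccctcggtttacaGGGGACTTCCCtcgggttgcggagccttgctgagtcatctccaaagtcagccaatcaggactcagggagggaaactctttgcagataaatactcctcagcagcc
The windows are chr5:92328080-92328329 for Cxcl9 (44.4% G and C) and chr5:92348890-92349139 for Cxcl10 (48.0%). The motifs, searched on both strands, were the interferon-stimulated response element (ISRE, a pair of GAAA blocks with any 2 bases between), the gamma-activated site (GAS, TTCNNNGAA), the NF-kB motif and TATAAA. The Cxcl10 window held an ISRE match, GAAAGTGAAA, 213 to 204 bases before the start, and NF-kB matches at 159 to 150 bases and, overlapping each other, at 104 to 94 bases. The Cxcl9 window held a single match, TATAAA, 195 to 190 bases before the start, and the Cxcr3 window held none. The Cxcr3 window, chrX:101734148-101734397, was set by the RefSeq start and overlaps the GENCODE gene given above. Among 32851 RefSeq promoters of the same length, 2.98% held the ISRE, 7.02% the GAS, 7.25% the NF-kB motif and 12.4% TATAAA. These are matches of letters in a short window and say nothing of where a factor binds. A window without a match may hold other response elements, which were not searched.

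Cxcl9 was the member that differed most between the libraries. Over all kept cells it had 7351 UMIs in WT and 613 in Ring1aKO, which is 118.8 and 8.88 CPM and a log2 ratio of −3.74 (−3.86 to −3.62). A Cxcl9 UMI was found in 538 WT cells (8.96%) and in 78 Ring1aKO cells (0.99%). The difference was carried by 1 class above all, the monocyte-like cells.

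Monocyte-like cells, marked by Chil3 and Thbs1, made up 15.8% of WT cells (946 cells) and 3.69% of Ring1aKO cells (292 cells). Both genes belong to the list that set the class, so their levels describe the class and cannot test its identity. Thbs1, encoding the matrix protein thrombospondin 1, was at 5027 CPM in WT and 7289 in Ring1aKO. Chil3, encoding a chitinase-like protein of monocytes, was at 1036 and 3074 CPM. Ptprc, which encodes CD45, was lower in the Ring1aKO library in every class. It was at 1466 CPM in WT and 833 in Ring1aKO T-like cells, and at 940 and 512 CPM in B-like cells. In the monocyte-like cells Ptprc was found in 98.3% and 94.9% of cells, at 1197 and 648 CPM. Summed markers of other cells in this class were at 1216 CPM in WT and 723 in Ring1aKO for plasma cells, 922 and 1010 for neutrophils, 34.2 and 74.2 for T cells and 53.3 and 20.4 for NK cells, of which 0 and 4 markers were at 0. Their part in the results was not tested. Cxcl9 was at 474 CPM (460 to 489) in the WT monocyte-like cells, from 4288 UMIs. In the Ring1aKO monocyte-like cells it was at 1.30 CPM (0.27 to 3.80), from 3 UMIs. The log2 ratio was −8.09 (−10.79 to −6.96), the lowest of the 8162 genes with enough UMIs in this class, of which 7.03% were at least 2-fold lower in Ring1aKO and 1.97% at least 2-fold higher. By cell, 268 of 946 WT cells (28.3%, 25.5 to 31.3) and 2 of 292 Ring1aKO cells (0.68%, 0.083 to 2.45) held a Cxcl9 UMI. Median depth was 9756.5 and 7761 UMIs, and with every cell thinned to 1000 UMIs the shares were 16.1% and 0 of 292, and a count of 0 allows up to 1.03% of cells with a UMI at that depth. Levels varied widely among the WT monocyte-like cells: the median of the positive cells was 7 UMIs, the highest cell held 197, 111 cells held at least 10, and the 10 highest cells held 25.1% of the class total.

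**Figure D1:**
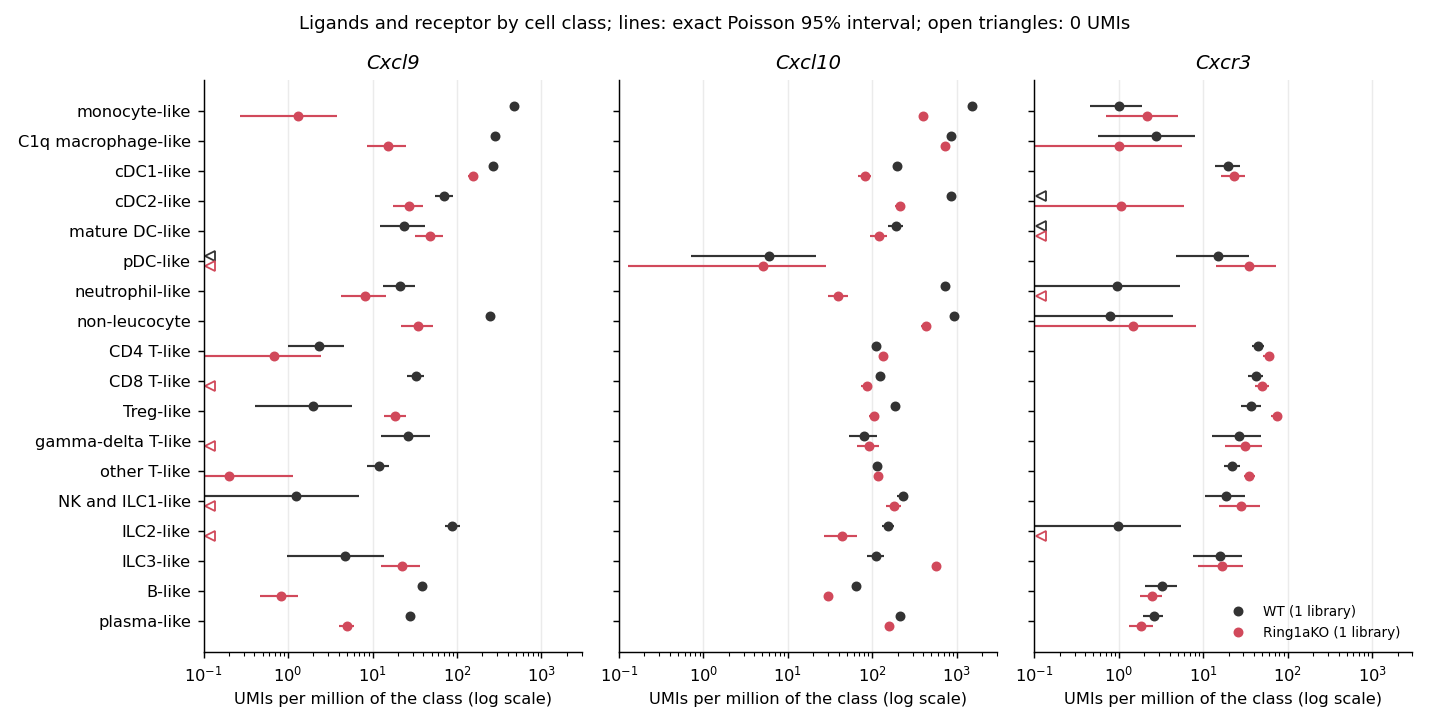
Levels of Cxcl9, Cxcl10 and Cxcr3 in CPM by cell class, with 1 point per library and Poisson 95% intervals that cover counting error only. Cxcl9 sits at 474 CPM in WT and 1.30 CPM in Ring1aKO monocyte-like cells, and Cxcr3 at 37.0 and 74.7 CPM in Treg-like cells.

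Macrophages and DCs also carried Cxcl9. C1q macrophage-like cells (150 and 175 cells), resident phagocytes that make complement C1q, had 309 Cxcl9 UMIs in WT and 15 in Ring1aKO, or 284 and 15.2 CPM. The log2 ratio was −4.13 (−5.07 to −3.47), the lowest of 4442 genes in that class, of which 2.12% were at least 2-fold lower and 1.64% at least 2-fold higher. With classes taken from clusters instead of the marker gate the ratio was −2.65. These WT UMIs came from few cells, since 26 cells were positive and the highest of them held 88 UMIs. Conventional type 1 DC (cDC1)-like cells, which present antigen to CD8 T cells, also carried the transcript in both libraries. They had 490 UMIs in 82 WT cells and 260 in 78 Ring1aKO cells, or 269 and 153 CPM, with a log2 ratio of −0.82 (−1.04 to −0.60). Positive cDC1-like cells made up 35.4% and 23.1%. A single Ring1aKO cell held 158 of the 260 UMIs, and with the highest cell of each library left out the levels were 224 and 59.9 CPM. cDC1-like cells held 6.67% of all Cxcl9 UMIs in WT and 42.4% in Ring1aKO, or 5.61% and 22.4% without those cells, while monocyte-like cells held 58.3% and 0.49%.

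In type 2 DC (cDC2)-like cells Cxcl9 was at 70.7 CPM in WT and 26.9 in Ring1aKO (65 and 25 UMIs, or 39.1 and 16.2 CPM without the highest cell of each library). Mature DC-like cells, the Ccr7-positive state that migrates to lymph nodes, had 12 UMIs in WT and 29 in Ring1aKO (23.6 and 47.9 CPM). Of the latter 16 lay in 1 cell, and without the highest cell of each library the levels were 17.7 and 21.5 CPM. Plasmacytoid DC-like cells held no Cxcl9 UMI in either library (32 and 20 cells). Neutrophil-like cells had 22 and 12 UMIs, of which 14 and 10 lay in 1 cell of each library. The few cells with fibroblast, endothelial or epithelial markers (110 and 74), of which only 21.8% and 14.9% held Ptprc, had 312 and 23 Cxcl9 UMIs. Unassigned cells had 758 and 63 (50 of the 63 in 1 cell), plasma-like cells 582 and 104 and B-like cells 275 and 16, of which 10 WT B-like cells held 96.7%. When the same cells were clustered, a plasma cell cluster also held 45.3% of the monocyte markers on average. It had 605 and 105 Cxcl9 UMIs in 126 and 186 cells. The other plasma cell clusters had 9 and 15 UMIs in 371 and 227 WT cells. The part of such mixed barcodes in the plasma-like values was not tested. Several lymphocyte counts rested on single barcodes: 89 of 91 WT UMIs in group 2 innate lymphoid (ILC2)-like cells, 64 of 75 WT UMIs in CD8 T-like cells and 40 of 44 Ring1aKO UMIs in regulatory T (Treg)-like cells lay in 1 cell each.

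**Figure D2:**
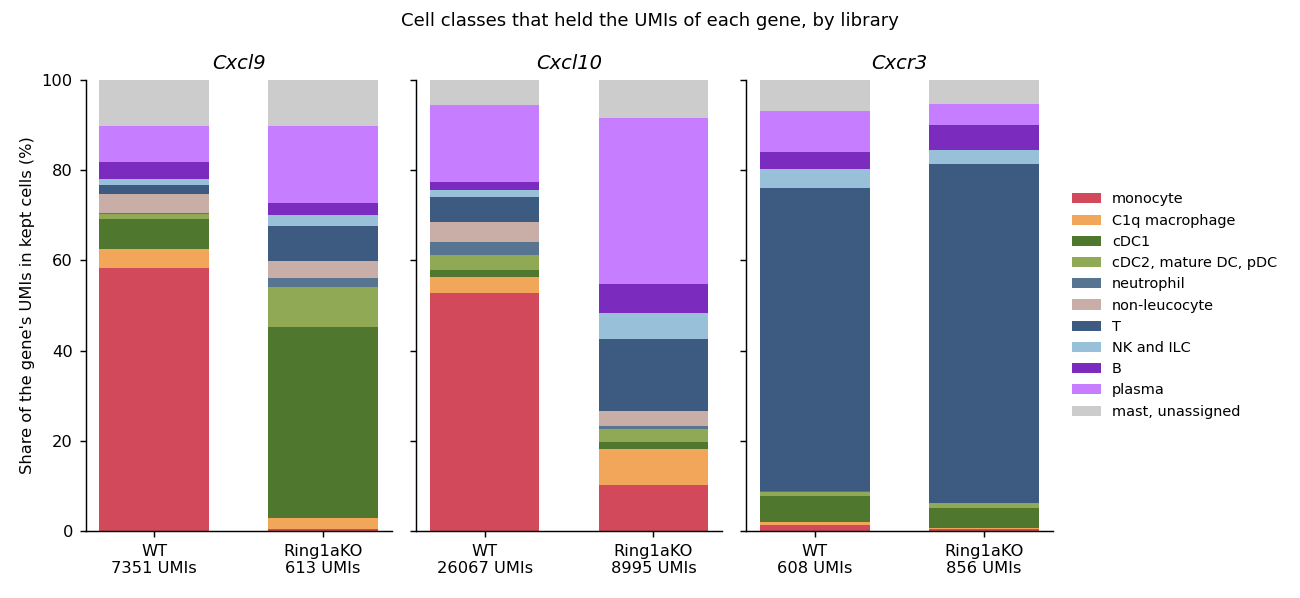
Share of each gene's UMIs in kept cells by cell class, in percent, for each library. Monocyte-like cells hold 58.3% of Cxcl9 UMIs in WT and 0.49% in Ring1aKO, and T-like and NK-like cells hold 69.4% and 76.8% of Cxcr3 UMIs.

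Cxcl10 was more abundant and more widely spread. It had 26067 UMIs in WT cells and 8995 in Ring1aKO cells, or 421 and 130 CPM, a log2 ratio of −1.69 (−1.73 to −1.66), and was found in 29.5% and 15.3% of cells. Monocyte-like cells held 52.9% of its UMIs in WT and 10.2% in Ring1aKO. Within them Cxcl10 was at 1524 CPM in WT (13777 UMIs) and 397 CPM in Ring1aKO (916 UMIs), a log2 ratio of −1.94 (−2.04 to −1.84), the 117th lowest of the 8162 genes. Unlike Cxcl9, it was still found in many Ring1aKO monocyte-like cells: 488 WT cells (51.6%, 48.3 to 54.8) and 111 Ring1aKO cells (38.0%, 32.4 to 43.9) were positive, with medians of 8 and 4 UMIs in the positive cells. After thinning the shares were 29.6% and 18.5%.

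The C1q macrophage-like cells held Cxcl10 at a similar level in the 2 libraries, in contrast to their Cxcl9. It was at 857 CPM in WT and 731 in Ring1aKO, a log2 ratio of −0.23 (−0.37 to −0.09), and 44.0% and 43.4% of cells were positive (26.7% and 26.3% after thinning). The estimated cell-free share of UMIs in this class was 21.9% in WT and 10.8% in Ring1aKO. In cDC1-like and cDC2-like cells Cxcl10 was lower in the Ring1aKO library. It was at 195 and 81.6 CPM in cDC1-like cells (log2 ratio −1.25, −1.55 to −0.97) and at 843 and 213 CPM in cDC2-like cells (−1.98, −2.22 to −1.76). In the cDC2-like cells 203 of the 776 WT UMIs and 87 of the 198 Ring1aKO UMIs lay in 1 cell each. Without the highest cell of each library the levels were 131 and 56.9 CPM in cDC1-like and 623 and 119.5 CPM in cDC2-like cells. The cells with fibroblast, endothelial or epithelial markers had 931 and 427 CPM. Mature DC-like cells had 96 and 72 UMIs, of which 67 and 34 lay in 1 cell of each library. Without these cells the levels were 57.1 and 62.7 CPM. Plasmacytoid DC-like cells had 2 and 1 UMIs.

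Neutrophil-like cells had 757 Cxcl10 UMIs in WT and 58 in Ring1aKO, or 727 and 39.5 CPM. The log2 ratio was −4.18 (−4.61 to −3.82), the third lowest of 3299 genes, of which 8.12% were at least 2-fold lower and 3.67% at least 2-fold higher. The 10 highest cells held 72.1% of these UMIs in WT and 77.6% in Ring1aKO. Without the highest cell of each library the levels were 590 and 26.5 CPM. Positive neutrophil-like cells made up 27.9% and 9.02%. Cell-free RNA, estimated from the IgA heavy chain transcript Igha, would give 16.4 CPM in WT and 43.5 CPM in Ring1aKO neutrophil-like cells. That estimate rests on cell-free shares of 3.72% and 26.5%, and plasma cell markers summed to 730 and 4624 CPM in these cells, with the median marker found in 7.76% and 6.27% of them. Whether the Ring1aKO level stood above background was not tested.

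Plasma-like cells held 17.1% of Cxcl10 UMIs in WT and 36.6% in Ring1aKO, at 210 and 156 CPM, in cells with median depths of 27260 and 32404 UMIs. T-like cells were at 123 and 113 CPM (log2 ratio −0.13), and B-like cells at 63.5 and 29.6 CPM. Barcodes with fewer than 100 UMIs, taken as cell-free RNA, had 441 and 164 CPM of Cxcl10, and 90.2 and 7.49 CPM of Cxcl9. Free transcript of both ligands was therefore present in both libraries and more so in WT, and its part in the lymphocyte and plasma cell values was not tested. In the T-like cells its estimate was 27.0 CPM in WT and 10.95 in Ring1aKO, below the measured levels.

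The drop in the pooled level of the ligands mixed the level within classes with the number of cells in each class. With the WT levels and the Ring1aKO class shares of UMIs, Cxcl9 over all cells would be at 68.3 CPM, against 118.8 as measured in WT. With the Ring1aKO levels and the WT class shares it would be at 10.0 CPM, against 8.88 as measured in Ring1aKO. With these gates, within-class level thus moved the Cxcl9 total further than class shares did. A loss of Cxcl9-high cells inside a class counts here as a lower level of that class. Whether fewer such cells or less transcript per cell lay behind the level was not tested. For Cxcl10 the corresponding values were 244 and 183 CPM, against 421 and 130 as measured.

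Single cells often held both ligands. Of the 268 Cxcl9-positive WT monocyte-like cells, 206 also held Cxcl10 (76.9%, 71.4 to 81.8). A further 62 held Cxcl9 alone, 282 held Cxcl10 alone and 396 held neither. The product of the single shares would give 138.25 cells with both, so that the observed number was 1.49 times as high, with an odds ratio of 4.67. Depth moved with detection, as cells with both ligands, with Cxcl10 alone and with neither had medians of 10618.5, 9996.5 and 9080.5 UMIs. After thinning to 1000 UMIs, 62.5% (54.3 to 70.2) of Cxcl9-positive cells held Cxcl10 and the odds ratio was 5.49. In the Ring1aKO library, 1 monocyte-like cell held both ligands, 1 held Cxcl9 alone, 110 held Cxcl10 alone and 180 held neither.

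**Figure D3:**
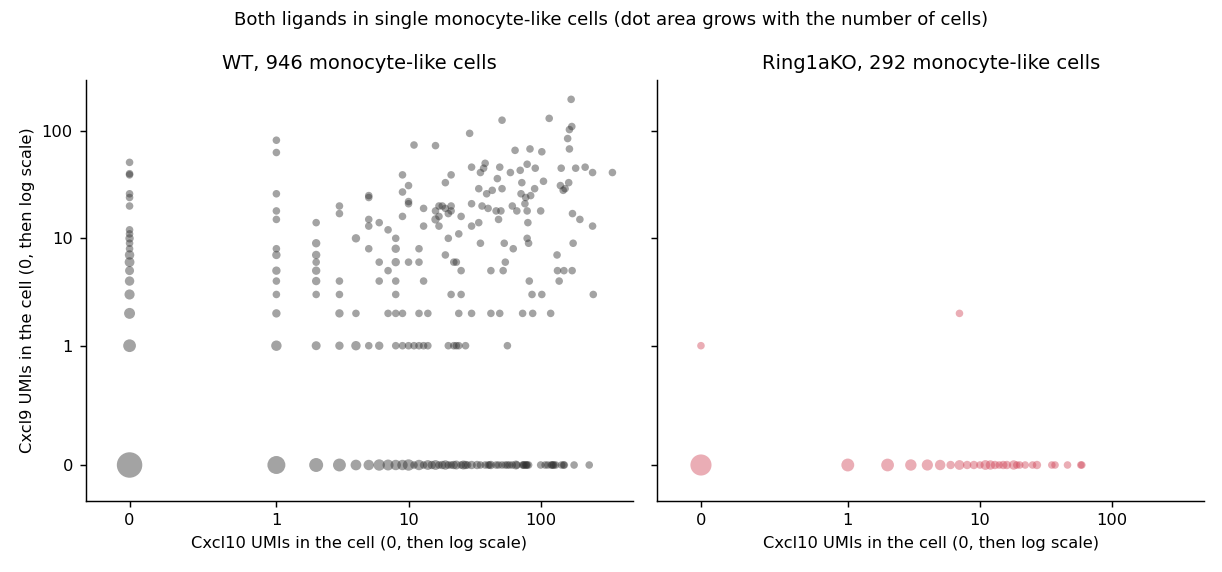
UMIs of Cxcl10 and Cxcl9 in monocyte-like cells, by library, with 1 point per pair of counts and larger points where more cells share the pair. WT cells reach 197 Cxcl9 UMIs and 206 of them hold both ligands, and Ring1aKO cells reach 59 Cxcl10 UMIs but lie along the Cxcl10 axis with 1 cell holding both.

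Cxcl9 was found more often in WT monocyte-like cells with more Cxcl10. Its share was 13.5% in the 458 cells with no Cxcl10 UMI, 18.9% with 1, 33.7% with 2 to 4, 41.2% with 5 to 19 and 64.5% (56.4 to 72.0) in the 155 cells with 20 or more. Mean Cxcl9 in these tiers was 0.882, 2.29, 1.77, 5.34 and 17.8 UMIs per cell. Among the 292 Ring1aKO monocyte-like cells only 2 held Cxcl9, too few for any order over the tiers to appear. Of 41 such cells with 5 to 19 Cxcl10 UMIs 1 held Cxcl9 (2.44%, 0.062 to 12.9), and of 10 cells with 20 or more none did, where a count of 0 allows up to 30%. In the tier of 5 to 19 UMIs the WT interval was 32.8 to 49.9.

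**Figure D4:**
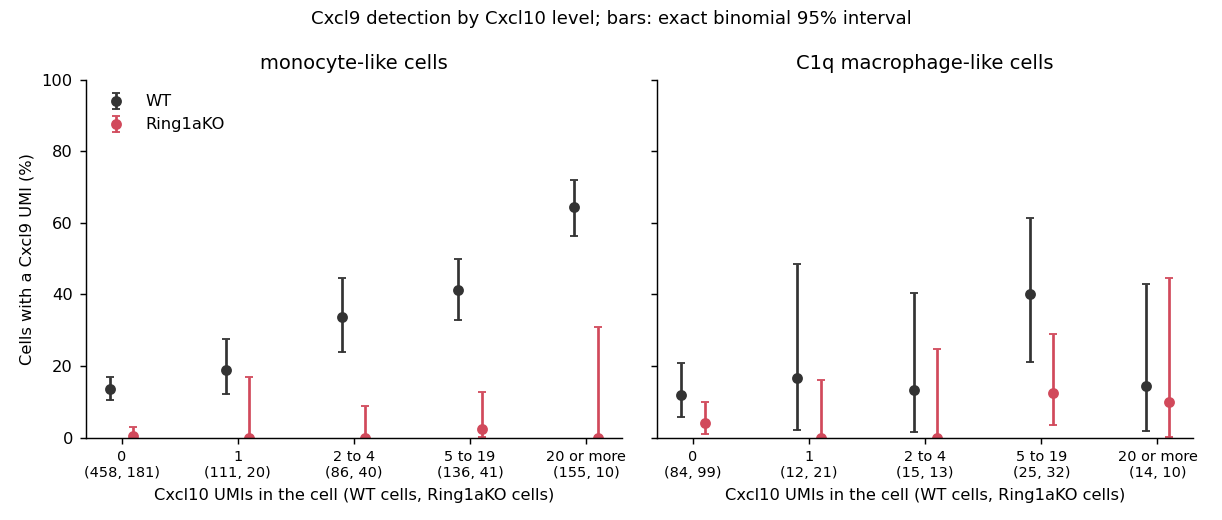
Share of cells with a Cxcl9 UMI, in percent with exact 95% binomial intervals, by the number of Cxcl10 UMIs in the cell, for monocyte-like and C1q macrophage-like cells. The share climbs from 13.5% to 64.5% over the tiers in WT monocyte-like cells and lies at or below 2.44% in the Ring1aKO monocyte-like tiers, and in Ring1aKO C1q macrophage-like cells it reaches 12.5%.

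Both ligands also met in single cells of other classes. In WT plasma-like cells 55 of the Cxcl9-positive cells held Cxcl10 (82.1%, or 25.0% after thinning). Of all WT plasma-like cells 51.0% held Cxcl10, and the product of the single shares would give 34.2 cells with both. After thinning 4 cells held both, against 2.20 from the product. The plasma cell cluster with many monocyte markers held 605 Cxcl9 UMIs in 126 WT cells. The part of such mixed barcodes in this co-detection was not tested. The share of Cxcl9-positive cells with Cxcl10 was 73.6% in WT unassigned cells (39 with both, 71.4% thinned). It was 66.7% in the WT cells with fibroblast, endothelial or epithelial markers (16 with both, and 8 of 10 after thinning). Among C1q macrophage-like cells, both ligands were found in 16 WT and 5 Ring1aKO cells, Cxcl9 alone in 10 and 4, and Cxcl10 alone in 50 and 71. Among cDC1-like cells, 12 of 29 Cxcl9-positive WT cells (41.4%) and 8 of 18 Ring1aKO cells (44.4%) also held Cxcl10. cDC2-like cells held both ligands in 5 and 2 cells, and neutrophil-like cells in 3 and 1. Over all classes 379 WT cells and 38 Ring1aKO cells carried both transcripts. Monocyte-like cells were 54.4% of them in WT and 2.63% in Ring1aKO, and cDC1-like cells were 21.1% of the Ring1aKO ones.

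The ligands were set beside the pathways that induce them. The interferon-gamma list held receptor, kinase and target genes, and 15 of its 17 genes had enough UMIs in monocyte-like cells. At least 2-fold lower in Ring1aKO were 11 of them, against 7.03% of all genes of the class, and the median log2 ratio of the 15 was −2.25, against −0.18 over all genes of the class. Lower were the guanylate-binding protein genes Gbp2 (971 CPM in WT and 49.9 in Ring1aKO, log2 ratio −4.27) and Gbp4 (−4.64), the immunity-related GTPase genes Iigp1 (−5.03) and Irgm1 (−3.76), and the transcription factor gene Irf1 (401 and 91.1 CPM, −2.13). Genes of the receptor and its kinases had smaller ratios, with Ifngr1 at 260 and 202 CPM (−0.36), Ifngr2 at −0.18, Jak1 at −0.15 and Jak2 at 0.02. Of the type I interferon list, 7 of 8 measured genes were at least 2-fold lower (median −2.05), among them the ubiquitin-like modifier gene Isg15 (−2.09) and the antiviral enzyme gene Rsad2 (−2.20).

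Genes of the NF-kB cytokine list had the other sign in the same cells. All 10 had a log2 ratio above 0, with a median of 0.73, and 1 of them, Il1a (1.43), was at least 2-fold higher, against 1.97% of all genes. Il1b, encoding the inflammatory cytokine interleukin-1 beta, was at 0.21, Tnf at 0.08, the chemokine genes Cxcl2 and Ccl4 at 0.99 and 0.98, and the inhibitor gene Nfkbia at 0.75. When ratios were taken relative to the class median of −0.18, 10 interferon-gamma genes were at least 2-fold lower, and 4 NF-kB genes at least 2-fold higher, with no change of sign in the list medians. The share of all genes past these shifted limits was not counted, so the shifted counts have no background beside them.

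C1q macrophage-like cells had smaller differences. Of 12 measured interferon-gamma genes 4 were at least 2-fold lower, against 2.12% of all genes, among them Gbp4 (−2.85), Gbp2 (−1.90) and Gbp5 (−1.35), and the list median was −0.55 against 0.01 over all genes. Type I interferon genes were at least 2-fold lower in 2 of 7 (Ifit2 −2.09 and Isg15 −1.52), and no NF-kB gene passed 2-fold in either direction. In cDC1-like cells the interferon-gamma median was −0.73 over 13 genes, with Gbp2 at −3.17, against −0.19 over all genes. The type I interferon median there was −0.02, over only 3 genes. In neutrophil-like cells the median was −1.21 over 12 interferon-gamma genes and −2.94 over 4 type I interferon genes, against −0.16 over all genes.

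**Figure D5:**
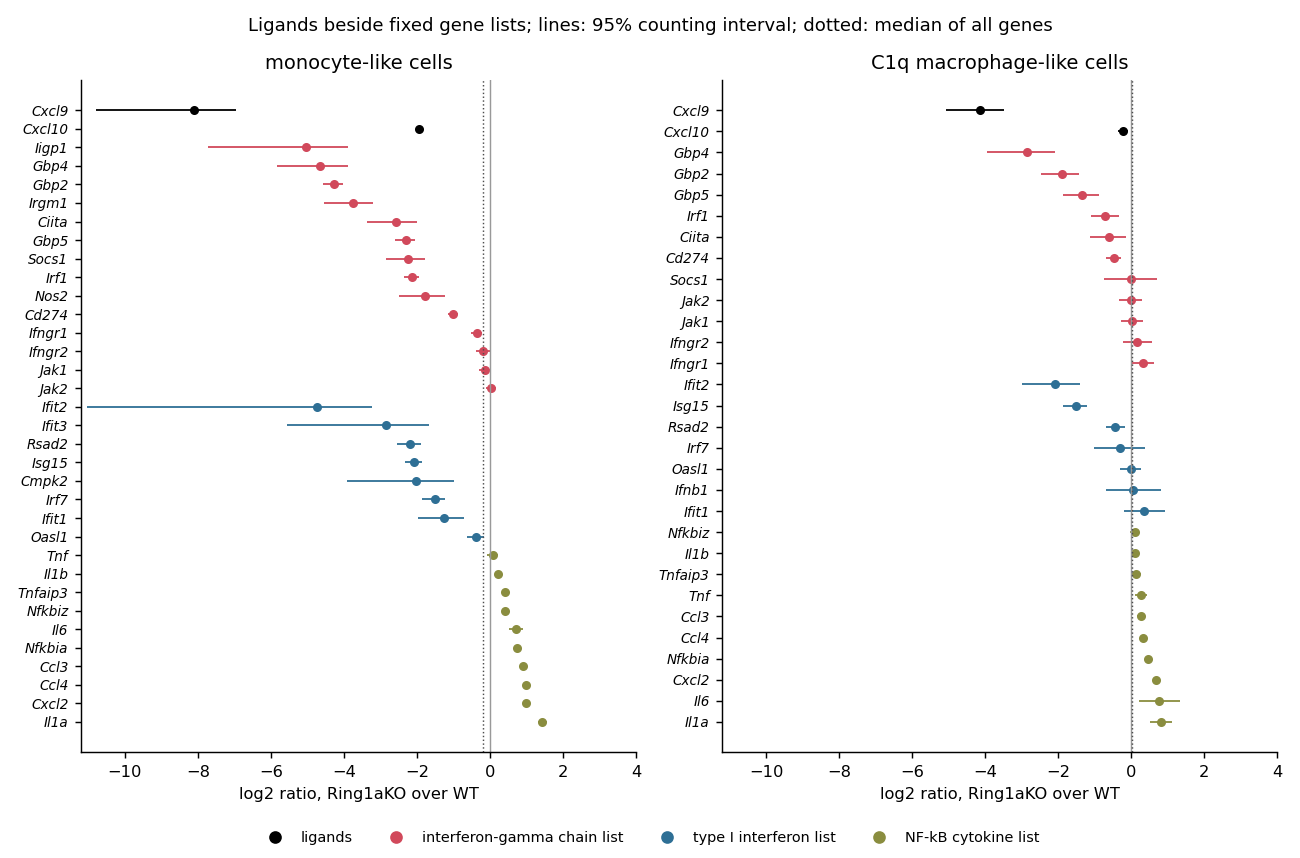
Log2 ratio of Ring1aKO over WT for Cxcl9, Cxcl10 and the reported genes of the interferon-gamma, type I interferon and NF-kB lists in monocyte-like and C1q macrophage-like cells, 1 point per gene with its 95% counting interval and a dotted line at the median of all genes. In monocyte-like cells the whole interferon lists have medians of −2.25 and −2.05 and the NF-kB list 0.73, with Cxcl9 at −8.09 and Cxcl10 at −1.94.

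Within the WT library alone, the same lists differed between monocyte-like cells sorted by the ligands they held. Relative to the 396 cells with neither ligand, the cells with both had a median log2 ratio of 1.72 over the interferon-gamma genes, 1.76 over the type I interferon genes and 0.21 over the NF-kB genes, against −0.03 over all genes. Cells with Cxcl10 alone had medians of 0.64, 1.57 and 0.50. Among interferon-gamma targets, Gbp2 was at 2130 CPM in cells with both ligands, 662 with Cxcl10 alone and 335 with neither. The NF-kB list gene Cxcl2 went the other way, at 3208, 6568 and 6760 CPM. Of the 10 NF-kB genes 80% were higher with both ligands than with neither, against 46.0% of all genes. The groups were set by the ligands themselves and also differed in Cxcl10 level. Of 155 cells with 20 or more Cxcl10 UMIs 100 held both ligands, and of 111 cells with 1 UMI 21 did. The part of Cxcl10 level in these values was not tested. In the Ring1aKO library, the 110 cells with Cxcl10 alone had medians of 0.35, 1.13 and 0.38 relative to the 180 with neither. These cells share 1 library each and are not replicates.

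Cytokines that lead lymphocytes to make interferon-gamma were mixed. In monocyte-like cells Il27 was lower in Ring1aKO (log2 ratio −1.99), Il15 was at −0.96, Il18 at −0.19 and Il12a at 0.97. Pf4, which encodes a platelet chemokine that can also bind CXCR3, was at 7.08 CPM in WT and 39.0 in Ring1aKO monocyte-like cells (2.46). Dpp4, encoding a peptidase that trims CXCR3 ligands, was at 17.1 and 7.37 CPM. The third known interferon-induced CXCR3 ligand gene, Cxcl11, is annotated as a polymorphic pseudogene in GRCm38 and was not analysed here.

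Cxcr3 was found in lymphocytes and was counted in nearly equal shares of all cells in the 2 libraries. Over all cells it had 608 UMIs in 401 WT cells (6.68%) and 856 in 522 Ring1aKO cells (6.59%), or 9.83 and 12.4 CPM. T-like and NK-like cells together (1828 and 1892 cells) held 69.4% and 76.8% of these UMIs. Their median depth was 5688.5 and 5636 UMIs, while the make-up of the class differed, with 127 and 81 NK-like and 55 and 93 gamma-delta T-like cells. Cxcr3 was at 34.0 CPM in WT (422 UMIs) and 49.5 in Ring1aKO (657 UMIs), a log2 ratio of 0.54 (0.36 to 0.72). Positive cells were 286 (15.6%) in WT and 378 of 1892 in Ring1aKO, with shares of 3.23% and 4.39% after thinning to 1000 UMIs. The ratio was below 2-fold and was the 613th highest of 10512 genes in the class, of which 1.06% were at least 2-fold higher and 2.24% at least 2-fold lower. The counts were sparse, as 67.3% and 65.5% of positive cells held a single Cxcr3 UMI.

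Among the T-cell gates, Treg-like cells had the widest gap. They had 57 Cxcr3 UMIs in 220 WT cells and 176 in 247 Ring1aKO cells, or 37.0 and 74.7 CPM, with 15.0% and 27.9% of cells positive and a log2 ratio of 1.00 (0.58 to 1.47). Median depth was 5495.5 and 6464 UMIs. After thinning 4.09% (1.89 to 7.62) and 6.88% (4.06 to 10.8) of cells were positive, and these intervals overlap. In the Ring1aKO Treg-like cells the highest cell held 11 UMIs and 10 cells held 43.8% of the total. CD4 T-like cells, in which no Foxp3 UMI was found, were at 45.0 and 59.7 CPM (154 and 174 UMIs, log2 ratio 0.41, 0.09 to 0.73). In CD8 T-like cells the levels were 42.3 and 50.2 CPM (0.25, −0.17 to 0.66), and in NK-like cells 18.8 and 27.9 CPM from 15 and 14 UMIs (0.58, −0.59 to 1.72), and both intervals span 0. Gamma-delta T-like cells had 26.3 and 31.3 CPM from 10 and 17 UMIs. T-like cells in none of these gates were at 22.2 and 35.3 CPM (0.66, 0.29 to 1.05). In WT the order of levels was CD4 T-like, CD8 T-like, Treg-like, gamma-delta T-like, other T-like and NK-like cells, with neighbours in it close together. In Ring1aKO, Treg-like cells came first. Whether the Treg-like ratio differed from that of the other gates was not tested.

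Outside T and NK cells, Cxcr3 was counted in cDC1-like cells, with 36 and 39 UMIs, 19.8 and 22.9 CPM and 23.2% and 32.1% of cells positive. These cells were deep, with a median of 21292.5 UMIs in WT, and after thinning 1.22% and 2.56% were positive. Plasmacytoid DC-like cells had 14.8 and 35.2 CPM from 5 and 7 UMIs, with 3.12% and 10.0% positive after thinning, and ILC3-like cells 15.6 and 16.7 CPM from 10 and 12 UMIs. B-like cells had 3.24 and 2.45 CPM, with 1.54% and 1.04% of cells positive, and plasma-like cells 2.60 and 1.84 CPM. Cell-free RNA itself had 10.5 and 12.0 CPM of Cxcr3. Its estimated part in B-like cells was 0.49 and 0.64 CPM, below the measured levels. For plasma-like cells the estimate cannot be used, since Igha put their cell-free share at the limit of 100%. When the same cells were clustered, a cluster held 82.2% of the B cell and 78.7% of the T cell markers on average. It had 8 and 46 Cxcr3 UMIs in 39 and 147 cells. Another, with 85.1% of the plasma cell and 74.5% of the T cell markers, had 9 and 17 in 30 and 62 cells. Among clusters named B cells the most was 12 and 16 UMIs, in 130 and 112 cells. The part of cell-free RNA and of such mixed barcodes in these Cxcr3 values was not tested. Monocyte-like cells had 9 and 5 UMIs, neutrophil-like cells 1 and 0, and ILC2-like cells 1 and 0. The classes with most Cxcl9 in WT were thus not those with Cxcr3, except cDC1-like cells, which held both the ligand and the receptor transcript.

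Most genes of the program that goes with CXCR3 in T helper 1 and cytotoxic cells had log2 ratios below 0. Of 13 measured in T-like and NK-like cells, 10 had a log2 ratio below 0, as had 54.2% of all genes, with a median of −0.52 against −0.05 over all genes. In CD8 T-like cells alone 7 of the 13 were below 0, as were 60.9% of all genes, with a median of −0.03. Below 0 were 11 of 13 in NK-like cells (57.4% of all genes, list median −0.29). In CD4 T-like cells 9 of 12 were (55.6% of all genes, −0.40), and in Treg-like cells 6 of 9 (54.2%, −0.45). In the pooled class 2 were at least 2-fold lower, against 2.24% of all genes, among them Il18r1 (−1.12), which encodes a receptor chain for interleukin-18. None was at least 2-fold higher, against 1.06% of all genes. Ifng, the gene of the cytokine that induces both ligands, was at 266 CPM in WT and 151 in Ring1aKO (−0.81). By class Ifng was at 1179 and 405 CPM in NK-like cells, at 257 and 157 in CD4 T-like cells, and at 297 and 383 in CD8 T-like cells. Tbx21, encoding the transcription factor T-bet that drives Cxcr3, was at 58.3 and 52.9 CPM (−0.14). Of 12 other chemokine receptor genes measured in the pooled class, 6 were below 0 and the median was 0.02, including Ccr7 at 0.77, Ccr9 at 0.58 and Ccr2 at −0.47. None passed 2-fold, against 2.24% of all genes lower and 1.06% higher, so that count alone does not set these genes apart.

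Cxcr3-positive cells were also compared with Cxcr3-negative cells of the same gate and library. In CD4 T-like cells (97 positive in WT and 99 in Ring1aKO) Tbx21 was higher in the positive cells, with log2 ratios of 0.85 in WT (0.20 to 1.44) and 0.78 in Ring1aKO (0.14 to 1.38), and Ifng was at 0.41 and 0.91. In CD8 T-like cells (67 and 69 positive) Ccr7, a receptor that guides cells to lymph nodes, was at −2.62 and −3.34 and Ly6c2 at 1.03 and 2.31, while Tbx21 was at 0.06 and −0.04. Ccr7 in CD4 T-like cells was at −0.43 and −0.79. Positive cells of both gates thus had less Ccr7 in both libraries.

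Last, genes were ranked by how closely their levels followed each member over 36 class-by-library sums, among 11262 genes. Closest to Cxcl9 were Batf2 (Pearson r = 0.83), Ifi205, Phf11d, Slamf8 and Parp12 (0.73). Closest to Cxcl10 were Ifih1 (r = 0.72), Gbp5, Ifi204, Crybg3 and Rin2 (0.70). Closest to Cxcr3 were S1pr4 (r = 0.88), Gm20069, Cd247, Sh2d1a and Wdyhv1 (0.84). The sums share libraries, cell-free RNA and class sizes, so these values are a description of likeness.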

How the data were processed

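The authors sorted live CD45+ colonic LP cells, made 3′ droplet libraries and deposited count tables that hold every barcode, with UMIs as counted and no normalization. Sources differ on how these counts were made: the study's methods name mm10, the matrix header another Cell Ranger release, and the submitters' processing notes Cell Ranger 6.0.2 and mm39. Age and kit version also differ between sources, and ages are given as in the labels. Gene positions were taken from GRCm38.

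Barcodes were kept with at least 1000 UMIs, at least 500 genes and less than 5% mitochondrial UMIs. A cell took the class whose marker list it held in the largest share, with at least 35% of the list and at least 2 markers, and ties stayed unassigned. T-like cells were split by detected genes. Gamma-delta T-like cells held Trdc and Trgc1, Trgc2 or Trgc4 but not Trac. Of the rest, Treg-like cells held Foxp3 without Cd8b1, and CD8 T-like cells held Cd8a and Cd8b1 without Cd4. CD4 T-like cells held Cd4 or Cd40lg without Foxp3, Cd8a or Cd8b1. The class gate was settled after it had been compared with clusters of the same cells. The members, gene lists and markers were chosen with earlier results of these data known. No doublet caller was run. Barcodes with at least 50% of the markers of 2 incompatible lineages were kept and left out as an alternative. UMIs were summed per class and divided by the summed UMIs of the class (CPM). Log2 ratios are Ring1aKO over WT after 1 UMI was added to the sum of either library. Genes entered with a total of 50 or more UMIs, and at least 2-fold was counted as lower or higher. Intervals are 95%: exact conditional for ratios, Poisson for CPM and Clopper-Pearson for shares. A share of 0 is given with the limit of 3 counts of the total. For thinned shares each cell was reduced to 1000 UMIs. Cell-free RNA was the barcodes with fewer than 100 UMIs, and its share per class was estimated from Igha. Likeness was the Pearson correlation of log2(CPM + 10) over class-by-library sums with at least 30 cells, for genes with at least 200 UMIs.

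The genes named are the members, Ring1, the lists of the CXCR3 system, the interferon-gamma chain, type I interferon, NF-kB cytokines, inducers of interferon-gamma, CXCR3-positive lymphocytes and other chemokine receptors, and the 5 genes most like each member. Examples were picked from these lists after their values were seen. Cxcl11 and Mx1 were not analysed here, and some list genes are not reported here. Alternatives changed the UMI, mitochondrial and ribosomal limits, doublets, classes, cell-free RNA and scaling, and 1 more, a monocyte list without 3 genes, was chosen after seeing the data. Python 3.11.15 was used with numpy 2.4.6, scipy 1.17.1, pandas 2.3.3, scanpy 1.11.5 and matplotlib 3.10.9. The code of the ratio and interval steps was tested on simulated data. These were independent Poisson counts, which the intervals assume, so the test does not cover genes whose UMIs lie in few cells.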

Additional observations from a re-analysis of the deposited data

Results flagged for a closer look

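Cxcl10 in ILC3-like cells had the opposite sign to the monocyte-like cells, with a log2 ratio of 2.36 (2.01 to 2.77) against −1.94. It had 70 UMIs in 84 WT cells and 408 in 95 Ring1aKO cells, or 110 and 569 CPM. A single Ring1aKO cell held 136 of these UMIs, and without the highest cell of each library the levels were 87.6 and 380 CPM. Positive cells made up 28.6% and 32.6%, and 15.5% and 14.7% after thinning to 1000 UMIs.

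Cxcl10 in CD4 T-like cells also stood on the other side of 0, at 0.31 (0.10 to 0.52), with 374 UMIs in WT and 395 in Ring1aKO (109 and 136 CPM). The share of positive cells was not higher in Ring1aKO, at 21.1% in WT and 19.3%, or 7.23% and 7.11% after thinning. The 10 highest cells held 51.3% and 49.9% of the UMIs. With 1 library per genotype, neither difference from the monocyte-like cells was tested.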

How the results depend on the processing

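Of 55 alternative values for 6 results, 51 stayed within their counting error, 4 moved and no log2 ratio changed sign. The ribosomal limit removed no monocyte-like or C1q macrophage-like cell, so its values there could not differ. Co-detection values are shares and have no sign to change. With median of ratios scaling Cxcl10 in monocyte-like cells was at −1.76. With classes taken from clusters, Cxcl9 in C1q macrophage-like cells was at −2.65 and Cxcl10 at −0.58. Thinned to 1000 UMIs, 62.5% of Cxcl9-positive WT monocyte-like cells held Cxcl10. The cause was not tested for the cluster values. Over all alternatives the log2 ratios ran from −8.95 to −7.68 for Cxcl9 and from −1.98 to −1.76 for Cxcl10 in monocyte-like cells, from −4.29 to −2.65 and from −0.58 to −0.14 in C1q macrophage-like cells, and from 0.50 to 0.59 for Cxcr3 in T-like and NK-like cells. Without Ly6c2, Plac8 and Ms4a4c in the monocyte list, chosen after seeing the data, Cxcl9 in monocyte-like cells was at −8.95. No paired analysis was possible because each genotype had 1 library, and no spread between mice could be measured. The 3 Cxcl9 UMIs in Ring1aKO monocyte-like cells limit how precisely that level is known.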

Other observations

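Il12b, which encodes a subunit of interleukin-12 and interleukin-23, stood at 17.0 CPM in WT and 92.7 CPM in Ring1aKO cDC1-like cells, a log2 ratio of 2.41. Markers of mature DCs moved with it in these cells, from 159 to 485 CPM summed over 7 genes, with Ccr7 at 114 and 340 CPM, and their part in the result was not tested. The interferon-gamma targets Gbp2 and Irf1 were at −3.17 and −0.95 in the same cells.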
